A study of Mus musculus with 16 samples.

Results

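The genes described here encode the enzymes that remove reactive oxygen species and electrophiles, together with the metallothioneins. They were taken by gene symbol: cytosolic and microsomal glutathione transferases, glutathione peroxidases, peroxiredoxins, superoxide dismutases, catalase, the enzymes of glutathione synthesis, heme oxygenases, quinone reductases and Mt1, Mt2 and Mt3. The array file held 75 probes of 50 such genes, and 63 probes of 46 genes were detected, with a detection p-value under 0.05 in 4 or more of the 16 arrays, of 15016 detected probes of 11025 genes in all. Gstm3, Gpx5, Gpx6 and Prdx6b fell below that limit, and no probe in the file carried the symbol Gsr.

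Superoxide dismutases turn superoxide into hydrogen peroxide, which catalase, glutathione peroxidases and peroxiredoxins then reduce, while glutathione transferases couple glutathione to electrophiles such as the breakdown products of oxidised lipids. Metallothioneins are small cysteine-rich proteins that bind zinc, copper and cadmium. The retina consumes much oxygen and holds light-sensitive membranes rich in polyunsaturated lipids. Many of these genes can be induced by the transcription factor NRF2 through antioxidant response elements, and metallothioneins by MTF1 through metal response elements.

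Total RNA of retina from C57BL/6 mice, an inbred laboratory strain, was measured on single-colour Illumina BeadChips, with 4 arrays in each of 4 groups: females and males, young at 3 months and aged at 24 months. No group carried an engineered allele or received an agent. Male aged 1 is titled aged but carries 12 months in its age field, and it was kept with the aged males. Nothing in the labels says whether each array stands for an animal of its own, so a p-value here reflects only how these samples vary, which may in part be technical. The arrays lay on 5 slides, 4 of which held more than 1 group, their mean intensities ran from 158 to 240, and 52.6% to 57.0% of probes were detected per array. Levels below are log2 normalised intensities of a gene's brightest probe, given by array in the order of replicate number and then as mean ± SD (n = 4). They compare arrays within 1 probe, never one probe with another. Differences are on the log2 scale, each with its standard error (SE) from 1 limma model over all 16 arrays, and a probe was called at a Benjamini-Hochberg adjusted p under 0.05 over all 15016 probes.

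The promoters of 40 of the 46 genes were found in a RefSeq table (build GRCm38.p6, windows of 300 bases that span a gene's start), 54 promoters in all. The core of the antioxidant response element (TGACNNNGC, either strand) stood in 7 of the 54 promoters, against 12.39% of all 32851 promoters of that length. The core of the metal response element (TGCACNC or TGCGCNC, either strand) stood in 17 of the 54, against 25.7% of all. The following windows belong to the gene that was called (Gstt3), to a classical NRF2 target whose window holds the antioxidant core (Gclm), and to both neighbouring metallothionein genes. Capitals mark the antioxidant core in Gclm and the metal response cores in Mt1 and Mt2, and neither core was found in the Gstt3 window. The Gclm window also holds 3 metal response cores, 1 of which overlaps the antioxidant core and so stands partly in capitals. The windows lie at chr10:75781365-75781664 (minus strand) for Gstt3, chr3:122245307-122245606 (plus strand) for Gclm, chr8:94178839-94179138 (plus strand) for Mt1 and chr8:94172368-94172667 (plus strand) for Mt2.
Gstt3: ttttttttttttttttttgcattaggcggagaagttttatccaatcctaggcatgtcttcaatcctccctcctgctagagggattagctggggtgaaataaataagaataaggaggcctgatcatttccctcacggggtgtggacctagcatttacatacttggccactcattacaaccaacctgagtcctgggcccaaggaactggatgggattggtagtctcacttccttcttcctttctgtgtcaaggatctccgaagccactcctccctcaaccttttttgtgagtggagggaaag
Gclm: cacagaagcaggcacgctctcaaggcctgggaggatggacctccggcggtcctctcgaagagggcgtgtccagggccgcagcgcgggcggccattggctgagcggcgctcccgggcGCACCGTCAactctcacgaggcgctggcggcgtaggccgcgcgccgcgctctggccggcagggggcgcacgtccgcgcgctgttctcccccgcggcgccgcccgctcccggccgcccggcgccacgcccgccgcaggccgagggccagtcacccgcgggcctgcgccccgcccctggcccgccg
Mt1: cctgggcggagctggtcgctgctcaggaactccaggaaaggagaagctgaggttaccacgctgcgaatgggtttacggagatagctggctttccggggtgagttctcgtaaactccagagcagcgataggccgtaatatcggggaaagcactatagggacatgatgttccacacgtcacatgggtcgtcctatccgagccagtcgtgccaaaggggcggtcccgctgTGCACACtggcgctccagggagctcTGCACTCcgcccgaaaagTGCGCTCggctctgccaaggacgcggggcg
Mt2: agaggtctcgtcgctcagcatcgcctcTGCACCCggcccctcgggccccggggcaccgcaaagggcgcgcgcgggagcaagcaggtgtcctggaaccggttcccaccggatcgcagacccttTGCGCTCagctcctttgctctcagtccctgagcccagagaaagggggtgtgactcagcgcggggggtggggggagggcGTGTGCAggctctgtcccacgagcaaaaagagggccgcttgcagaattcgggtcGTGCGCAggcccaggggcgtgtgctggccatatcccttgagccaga
The Mt2 window also holds 1 match to the antioxidant core (not in capitals), which overlaps an AP-1 site (TGACTCA), a motif found in 5.202% of all promoters. A match is a description of letters and says nothing of a factor's binding in these retinas.

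Gstt3, a theta-class glutathione transferase, was the only one of the 46 genes called in any of the 6 comparisons. In young males its level was 6.75, 6.66, 6.61 and 6.61 (6.66 ± 0.07), and in aged males 7.16, 7.56, 7.42 and 7.29 (7.36 ± 0.17). All 4 aged males lay above all 4 young males, and Gstt3 rose 1.62-fold with age in males (0.70, SE 0.12, limma adjusted p = 0.00801). In young females it was 6.65, 6.82, 6.77 and 7.33 (6.89 ± 0.30), and in aged females 7.19, 7.07, 7.29 and 7.21 (7.19 ± 0.09). Young female 4 alone reached the range of the aged arrays, and the female difference was 0.30 (SE 0.12, limma adjusted p = 0.554), or 0.45 without that array (limma adjusted p = 0.0386). The mean of both sexes rose 1.41-fold (0.50, SE 0.09, limma adjusted p = 0.00313). Within slides that held both ages the difference was 0.40 and 0.88 in males and 0.64 and 0.44 in females. The difference between the sexes in aging was -0.40 (SE 0.17, limma adjusted p = 0.511), so unequal aging of Gstt3 in females and males was not called.

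The question of the study, how sex and age act on the retina's transcriptome, gave 6 comparisons, and most of the 46 genes stayed under the threshold in each. For aging in females 0 of 63 probes were called, against 0.633% of all probes, 7 had an unadjusted p under 0.05 (11.1%, against 7.14% of all), and 25 lay above 0 (39.7%, against 49.7%). For aging in males 1 of 63 was called (1.59%), against 0.992% of all, and 38 lay above 0 (60.3%, against 44.1%). The 12 probes with an unadjusted p under 0.05 were 19.0% of the members, against 14.6% of all. At an unadjusted p under 0.05, 10 member probes were higher in aged males (15.9%, against 6.58% of all) and 2 were lower (3.17%, against 7.98%). For the mean of both sexes 1 of 63 was called (1.59%), against 1.88% of all, and 11 had an unadjusted p under 0.05 (17.5%, against 11.1%). The shares called are thus near the background, and the median log2 difference of the 63 probes was -0.034 in females (all probes -0.00099), 0.093 in males (all probes -0.022) and 0.0057 for the mean of both (all probes -0.0099). The members' median varied with an SD of 0.0776 between arrays of a group, and without male aged 2 the male median was 0.011. Within slides that held both ages, the males' median was -0.079 with 20 probes above 0 on the slide of male aged 1 and 0.123 with 42 above 0 on the other. In females it was 0.071 with 35 above 0 and -0.044 with 29 above 0, so in neither sex did the direction hold on both slides. Of the 63 probes, 34 (54.0%) differed in the same direction in both sexes, against 48.4% of all probes.

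**Figure D1:**
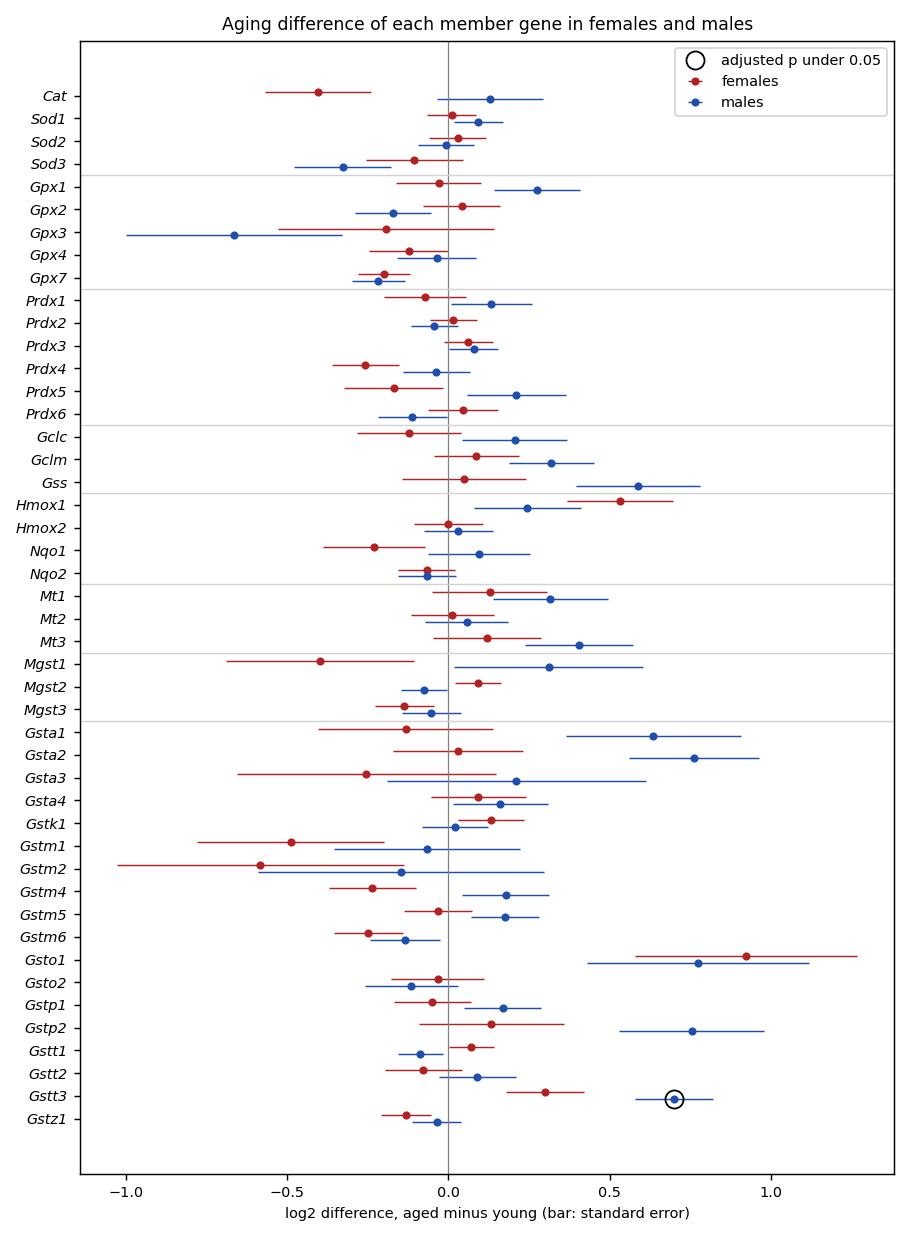
Log2 difference of aged minus young for each of the 46 genes (brightest probe), females in red and males in blue, with bars for the standard error of limma's model and horizontal lines between enzyme families. The ringed point is Gstt3 in males (0.70), the only one past the adjusted threshold.

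The precision of these values bounds which differences in measured level could have been missed. For genes near background, such as Mt2, a narrow interval bounds the probe reading and says less about the transcript. The 95% confidence interval of the mean aging difference had a median half-width of 0.19 over the 46 genes, and for 34 of them it lay within 0.5 on either side of 0. In females alone that held for 32 genes and in males alone for 27.

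Gsto1, an omega-class transferase with dehydroascorbate reductase activity, had the largest mean aging difference of the 46 genes, 0.85 (SE 0.24, limma adjusted p = 0.103). Its level in young females was 9.07, 9.27, 10.18 and 10.53 (9.76 ± 0.70), and in aged females 10.26, 10.51, 11.11 and 10.87 (10.69 ± 0.38). In young males it was 10.16, 9.19, 10.05 and 8.89 (9.57 ± 0.63), and in aged males 10.17, 11.14, 9.99 and 10.09 (10.35 ± 0.53). Female young 4 and male young 1 and 3 lay within the range of the aged arrays of their sex, and the other young arrays lay below it. The difference was 0.92 (SE 0.34) in females and 0.77 (SE 0.34) in males, neither called (limma adjusted p = 0.478 and 0.311). Within slides it was 2.05 and 0.69 in females and 0.01 and 1.09 in males, and without female young 4 the mean of both sexes was 0.98 (limma adjusted p = 0.0373). The second omega gene, Gsto2, differed by -0.03 in females and -0.12 in males, and its other probe by -0.10 and 0.02.

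The alpha-class transferases act on products of lipid peroxidation, and Gsta1 and Gsta2 are close copies whose probes may not fully separate them. Gsta2 was near background in young males at 4.60, 4.30, 4.31 and 4.35 (4.39 ± 0.14) and stood at 5.18, 5.59, 4.75 and 5.10 (5.15 ± 0.34) in aged males. These groups did not overlap, and the difference was 0.76 (SE 0.20, limma adjusted p = 0.0898), with 0.57 and 0.84 within slides. Gsta2 was detected on 1 of the 4 young male arrays and on all 4 aged male arrays. In females it was 4.34, 4.22, 4.36 and 5.34 (4.57 ± 0.52) young and 4.41, 4.71, 4.61 and 4.67 (4.60 ± 0.13) aged, so female young 4 alone stood above the aged females. Without that array the model called the male difference (limma adjusted p = 0.00885). Gsta1 did not overlap between male ages either, with 4.71, 4.22, 4.57 and 4.81 in young and 4.93, 5.74, 4.96 and 5.23 in aged males (0.64, limma adjusted p = 0.296). Non-overlap with higher aged males held for 4 of 63 probes, of Gstt3, Gsta1, Gsta2 and Gstp1 (6.35%, against 3.88% of all). Gsta3 read 9.49 in female young 4 against 7.09 to 7.41 in the other young females, and Mgst1, a microsomal transferase, read 8.51 there against 7.02 to 7.48. The 3 microsomal genes ranged from -0.40 to 0.09 in females and from -0.07 to 0.31 in males, and Mgst1 had the lowest of the female and the highest of the male values.

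Gstp2 belongs to the pi class, and its near-identical neighbour Gstp1 has 3 probes of its own here. Gstp2 was 6.75, 6.15, 6.28 and 6.18 (6.34 ± 0.28) in young males and 6.35, 7.33, 7.27 and 7.42 (7.09 ± 0.50) in aged males. Male aged 1, the array of disputed age, lay among the young males, and the other 3 aged males lay above every young male. The difference was 0.75 (SE 0.23, limma adjusted p = 0.129) with male aged 1 and 1.00 (limma adjusted p = 0.0135) without it, and within slides it was -0.41 on the slide of male aged 1 and 1.07 on the other. In females Gstp2 was 5.97, 6.53, 6.22 and 6.61 (6.33 ± 0.30) young and 6.32, 6.96, 6.44 and 6.13 (6.46 ± 0.35) aged, which overlap. The 3 probes of Gstp1 differed by 0.12 to 0.17 in males and by -0.11 to -0.0032 in females.

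The mu-class genes Gstm1 and Gstm2 each had single arrays far from the rest. Gstm2 read 8.85, 8.96, 9.00 and 6.58 in aged females against 8.85, 8.92, 8.62 and 9.34 in young females, and 9.85 in male young 1. Its 3 probes all differed by -0.58 to -0.50 in females, none called, and all 3 were lowest in female aged 4. Gstm1 read 7.30 in female aged 4 against 8.67 to 8.79 in the other aged females. The summed level of the lens markers was lowest of all arrays in female aged 4 (16305) and highest in male young 1 (61190). In female aged 1, 2 and 3 the sum was 21842, 40337 and 33326. The second highest sum, 45223, was in male aged 4, where Gstm2 read 8.69. The part of the lens in these values was not tested. Gstm6 did not overlap between female ages, the aged being lower (-0.25, SE 0.11, limma adjusted p = 0.618), as held for 1 of 63 probes (1.59%, against 1.53% of all). The highest aged female (5.938) lay only just below the lowest young female (5.943), and female aged 4 stood apart at 5.47. The ages overlapped for the second Gstm6 probe. Over the cytosolic transferases of every class, 12 of 18 genes lay above 0 for aging in males (44.1% of all probes). For aging in females 7 of 18 did (49.7% of all probes).

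**Figure D2:**
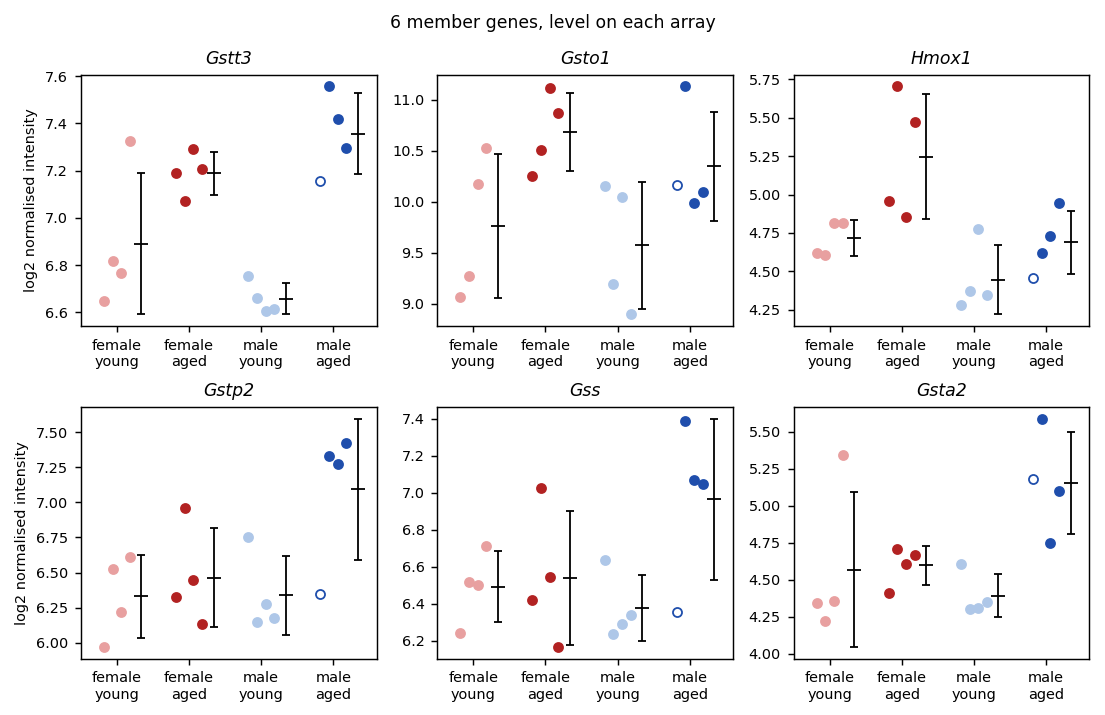
Log2 normalised intensity of Gstt3, Gsto1, Hmox1, Gstp2, Gss and Gsta2 on each array, with points for arrays in order of replicate number, bars for mean ± SD (n = 4) and an open circle for male aged 1. Gstt3 separates all aged males (7.16 to 7.56) from all young males (6.61 to 6.75), and male aged 1 lies with the young males for Gstp2 (6.35) and Gss (6.36).

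Glutathione itself is made by glutamate cysteine ligase, with Gclc as its catalytic and Gclm as its modifier subunit, and by glutathione synthetase, Gss. Gss was 6.64, 6.23, 6.29 and 6.34 (6.38 ± 0.18) in young males and 6.36, 7.39, 7.07 and 7.05 (6.96 ± 0.44) in aged males. As for Gstp2, male aged 1 lay among the young males and the other 3 above them. The difference was 0.59 (SE 0.19, limma adjusted p = 0.169), its 3 probes gave 0.57 to 0.67, and without male aged 1 it was 0.79 (limma adjusted p = 0.0276). Within slides it was -0.28 on the slide of male aged 1 and 0.91 on the other. In females Gss differed by 0.05. Gclm showed the same array apart, with 6.89 in male aged 1 against 7.25 to 7.31 in the other aged males and 6.67 to 7.15 in young males (0.32, SE 0.13, limma adjusted p = 0.282), and within slides it was -0.26 and 0.51. Gclc differed by 0.21 in males and -0.12 in females, neither called.

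Hmox1, the inducible heme oxygenase, which breaks down heme, gave the smallest unadjusted p among the 46 genes for aging in females. It was 4.62, 4.61, 4.82 and 4.82 (4.72 ± 0.12) in young females and 4.96, 5.71, 4.85 and 5.48 (5.25 ± 0.41) in aged females. The groups did not overlap, as for 1 of 63 probes (1.59%, against 2.36% of all), yet aged females 1 and 3 stood only just above the young. The difference was 0.53 (SE 0.16, limma adjusted p = 0.281), with 0.23 and 0.66 within slides. In males it was 4.28, 4.37, 4.78 and 4.35 (4.44 ± 0.22) young and 4.45, 4.62, 4.73 and 4.95 (4.69 ± 0.21) aged, a difference of 0.24 (limma adjusted p = 0.52). The probe was detected on 3 young female, 4 aged female, 1 young male and 3 aged male arrays, so these levels lie close to background. The markers of microglia and macrophages, cells that can express Hmox1, summed to 356 to 503 in young and 506 to 715 in aged females. By replicate number the aged female sums were 656, 593, 715 and 506, so the highest was in female aged 3, where Hmox1 was 4.85. In males the sums were 365 to 418 young and 597 to 1088 aged. The part of these cells in the result was not tested. The constitutive Hmox2 differed by 0.02 for the mean of both sexes (95% interval -0.15 to 0.18), and Nqo1, a quinone reductase and NRF2 target, by -0.23 in females and 0.10 in males.

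Of the superoxide dismutases, the cytosolic Sod1 and the mitochondrial Sod2 hardly differed between ages. Sod1 was 10.80 ± 0.13 in young and 10.81 ± 0.02 in aged females, and 10.84 ± 0.08 and 10.93 ± 0.10 in males. The 95% interval of its mean aging difference was -0.06 to 0.17, and that of Sod2 was -0.12 to 0.14. The secreted Sod3 was 5.72, 5.55, 5.34 and 5.11 in young and 4.82, 5.37, 5.27 and 4.95 in aged males (-0.33, SE 0.15, limma adjusted p = 0.323), with -0.90 and 0.09 within slides. Catalase (Cat), the peroxisomal hydrogen peroxide enzyme, was 6.47, 5.70, 6.30 and 6.20 (6.17 ± 0.33) in young females and 5.47, 5.60, 5.98 and 6.00 (5.76 ± 0.27) in aged females. These overlap through female young 2, and the difference was -0.40 (SE 0.16, limma adjusted p = 0.556), with -0.50 and -0.30 within slides. In males catalase was 6.31, 6.28, 5.92 and 5.81 young and 6.06, 6.12, 6.24 and 6.42 aged, a difference of 0.13.

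Among the glutathione peroxidases, Gpx7, an enzyme of the endoplasmic reticulum, came nearest to a call after Gstt3. It was 5.37, 5.62, 5.37 and 5.43 (5.45 ± 0.12) in young females and 5.40, 5.28, 5.12 and 5.20 (5.25 ± 0.12) in aged females. In males it was 5.42, 5.51, 5.52 and 5.64 (5.52 ± 0.09) young and 5.37, 5.22, 5.35 and 5.29 (5.31 ± 0.07) aged, which do not overlap. The lower aged groups held for 1 of 63 probes in males (1.59%, against 5.21% of all). The mean aging difference was -0.21 (SE 0.06, limma adjusted p = 0.0823), and on the authors' scaled values it was called (-0.33, limma adjusted p = 0.0164). Gpx3, the secreted plasma form, was 11.25, 9.98, 10.39 and 10.06 in young and 9.09, 10.24, 9.89 and 9.79 in aged males (-0.67, SE 0.33, limma adjusted p = 0.375). The highest of these, male young 1, was the array with the highest lens marker sum. In male young 2, 3 and 4 that sum was 36373, 29304 and 29077, and in aged males 29922 to 45223. The part of the lens in these values was not tested. Gpx1, the cytosolic form, differed by 0.27 in males and -0.03 in females, and Gpx4, which reduces lipid hydroperoxides in membranes, by -0.04 and -0.12. A second Gpx4 probe had the opposite sign in females (0.10) and differed by -0.13 in males. The 6 peroxiredoxins ranged from -0.26 to 0.06 in females and from -0.11 to 0.21 in males. The lowest of these was Prdx4, the form of the endoplasmic reticulum, in females (-0.26, SE 0.10, limma adjusted p = 0.543).

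The metallothioneins all lay above 0 in aged retinas and none was called. Mt1 was 11.78, 11.34, 11.38 and 12.28 (11.69 ± 0.44) in young and 11.77, 11.67, 12.17 and 11.67 (11.82 ± 0.24) in aged females. In males it was 11.93, 11.48, 11.54 and 11.77 (11.68 ± 0.21) young and 11.90, 12.27, 11.98 and 11.85 (12.00 ± 0.19) aged. The ages overlapped in both sexes, with differences of 0.13 and 0.32 (limma adjusted p = 0.95 and 0.432). Mt3, the form known from neurons and glia, was 7.53, 7.67, 7.73 and 7.97 (7.72 ± 0.18) in young and 8.27, 8.33, 8.16 and 7.76 (8.13 ± 0.26) in aged males, a difference of 0.41 (SE 0.17, limma adjusted p = 0.278). Male aged 4 lay within the young range and the other 3 aged males above it. Mt2, whose window holds the most metal response cores of the printed sequences, was near background on this array, at 4.45 to 5.12 over all 16 arrays, and differed by 0.01 in females and 0.06 in males. Over the 16 arrays, as deviations from the group mean, Mt1 and Mt2 had a Pearson r of -0.13 (permutation p = 0.63) and a Spearman rho of -0.20 (permutation p = 0.454). Mt1 and Mt3 had r = 0.17 (permutation p = 0.532) and rho = 0.29 (permutation p = 0.282). Mt2 and Mt3 had r = -0.47 (permutation p = 0.068, adjusted over the 3 relations 0.204) and rho = -0.54 (permutation p = 0.033, adjusted 0.0989), and r = -0.49 without the 2 arrays farthest from the median. With slide means removed as well, that r was -0.25.

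**Figure D3:**
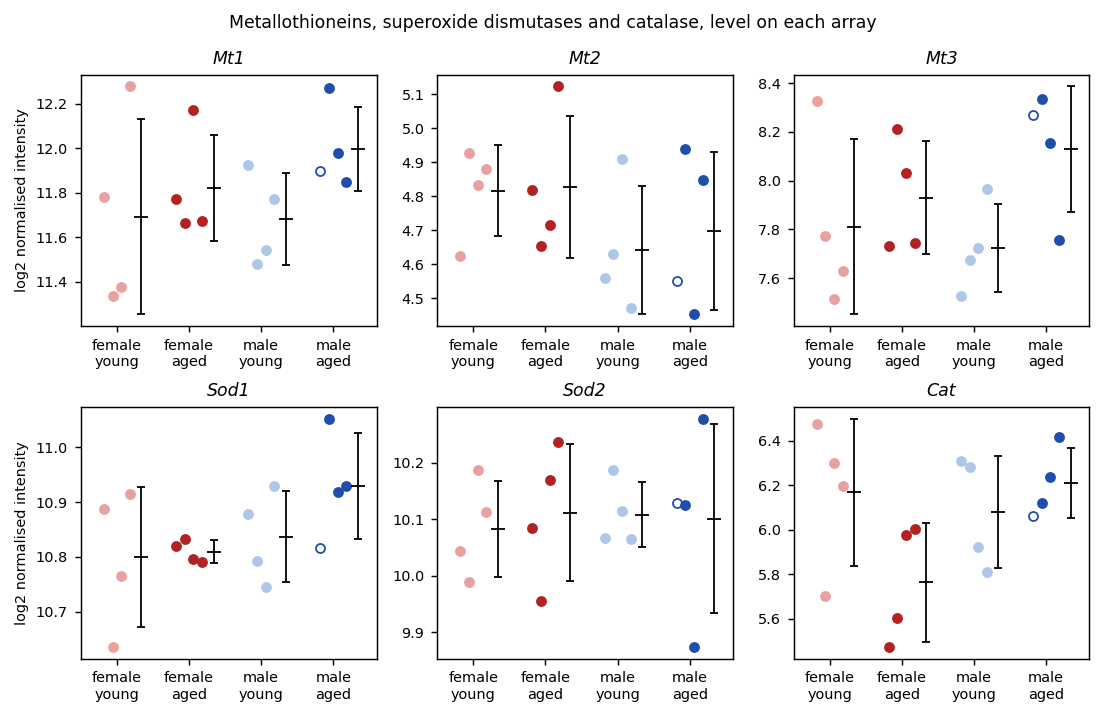
Log2 normalised intensity of Mt1, Mt2, Mt3, Sod1, Sod2 and Cat on each array, with points for arrays in order of replicate number, bars for mean ± SD (n = 4) and an open circle for male aged 1. The ages overlap in both sexes for each of these genes, and the vertical axes span different ranges, which are narrow for Sod1 and Sod2.

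Set against each other at the same age, females and males differed in none of the 63 probes past the adjusted threshold. In young retinas 0 of 63 were called (all probes 0.393%), and in aged retinas 0 of 63 (all probes 0.686%). At an unadjusted p under 0.05 there were 4 in young (6.35%, against 15.6% of all) and 11 in aged retinas (17.5%, against 12.7% of all). Of these 11, 10 were lower in aged females (15.9%, against 5.67% of all), and 4 probes, of Cat, Gsta1, Gsta2 and Gstz1, did not overlap in that direction (6.35%, against 2.86% of all). In aged retinas 19 of the 63 probes lay above 0 (30.2%, against 51.8% of all), and 15 of the 18 cytosolic transferase genes lay lower in females, while the members' median was -0.096 (all probes 0.0065). Within slides that median was 0.011 on 1 slide and -0.173 on the other, so its direction did not hold within both slides. Catalase was among the 4 that did not overlap (-0.45, SE 0.16, limma adjusted p = 0.247) and was lower in aged females on both slides, by -0.52 and -0.42. Mgst1 had the largest difference of the genes with an unadjusted p under 0.05 (-0.76, limma adjusted p = 0.278), followed by Gstp2 (-0.63, limma adjusted p = 0.235), which was -0.88 without male aged 1 (limma adjusted p = 0.034). Within slides Gstp2 was 0.29 on the slide of male aged 1 and -1.29 on the other, so its direction did not hold on both, and Mgst1 was -0.09 and -1.23. In the other direction Hmox1 was 0.56 higher in aged females (SE 0.16, limma adjusted p = 0.147), with 0.88 and 0.53 within slides. In young retinas Gstt1, a theta-class transferase, was 7.43, 7.47, 7.43 and 7.55 in females and 7.68, 7.59, 7.78 and 7.78 in males, which do not overlap (-0.24, SE 0.07, limma adjusted p = 0.136), as for 1 of 63 probes (1.59%, against 3.74% of all). Gstz1, the zeta-class transferase of tyrosine breakdown, was lower in aged females without overlap (-0.21, SE 0.08, limma adjusted p = 0.236). That margin was narrow, with the highest aged female at 8.751 and the lowest aged male at 8.754.

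The test of unequal aging in females and males called 0 of 63 members and 0 of all 15016 probes (0% of all). At an unadjusted p under 0.05 it gave 5 members (7.94%), against 1402 of all probes (9.34%). The median of the members was -0.131 (all probes 0.021), and 15 of the 63 lay above 0 (23.8%, against 54.3% of all), where a value below 0 means a lower aging difference in females. The genes with the smallest unadjusted p beside Gstt3 were Gsta2 (-0.73, SE 0.29, limma adjusted p = 0.509) and catalase (-0.53, limma adjusted p = 0.515). This difference uses both aging comparisons and both sex comparisons, so these counts restate the same 16 arrays.

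**Figure D4:**
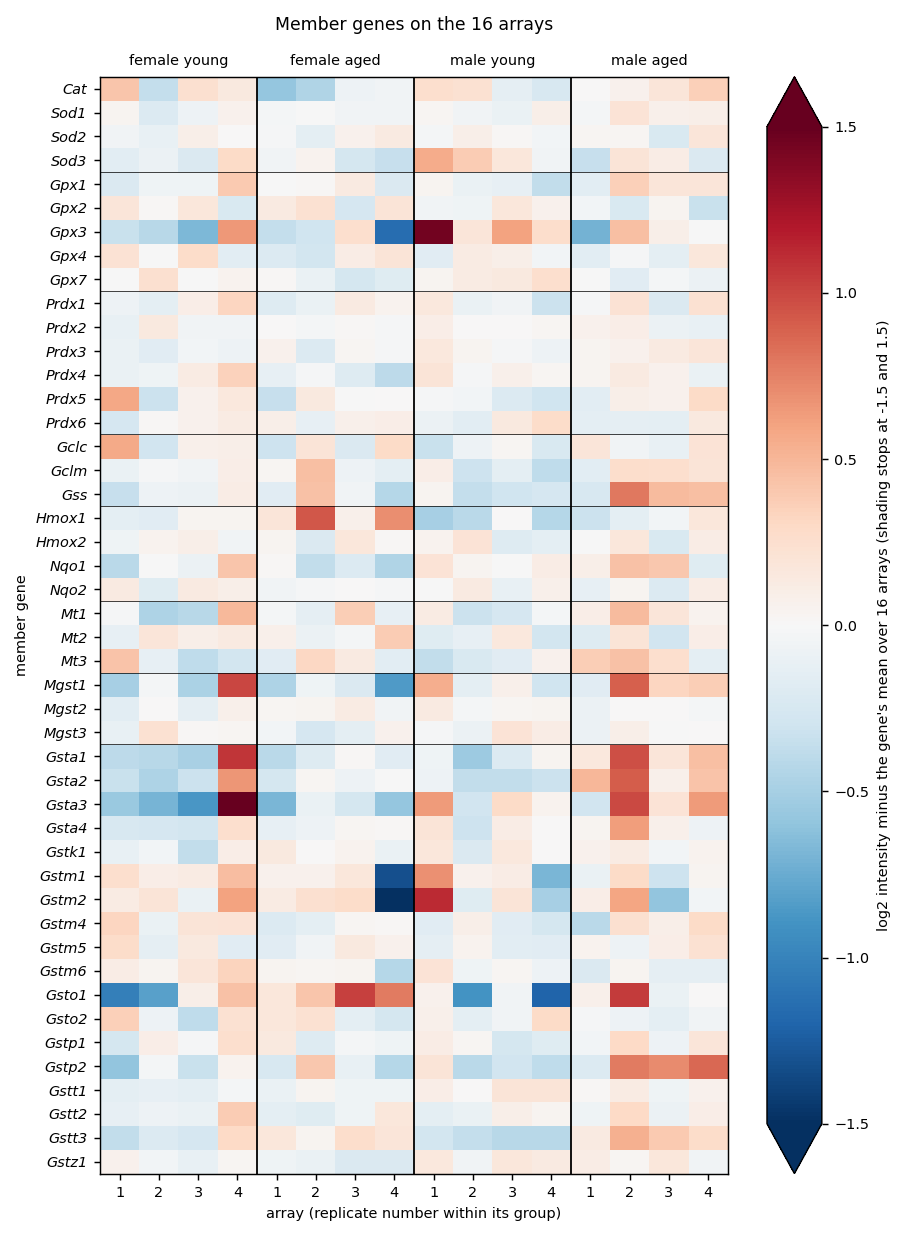
Log2 intensity of each of the 46 genes minus its mean over the 16 arrays (columns, by group and replicate number; shading stops at -1.5 and 1.5). Single columns stand apart for several genes at once: female young 4 for Gsta1, Gsta3 and Mgst1, female aged 4 for Gstm1 and Gstm2, and male young 1 for Gpx3 and Gstm2.

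Other genes of the same pathways were counted by lists. Of 30 NRF2 regulators and targets outside the 46 genes 23 were tested and 0 were called in any of the 6 comparisons, with medians of -0.05 in aging females and -0.0042 in aging males. Of 12 genes of zinc and glucocorticoid response, among them Mtf1, 11 were tested and 0 were called. Of 20 genes of glutathione use and supply 14 were tested. Slc1a1, a carrier of glutamate and cysteine, rose in aged males (0.38, SE 0.08, limma adjusted p = 0.0373) and in the mean of both sexes (0.30, SE 0.06, limma adjusted p = 0.0115). Ggct, which cleaves gamma-glutamyl peptides, was higher in females when young (0.85, SE 0.13, limma adjusted p = 0.0051) and when aged (0.62, SE 0.13, limma adjusted p = 0.0353). Ggt7, of the gamma-glutamyltransferase family, was higher in aged females (0.53, SE 0.11, limma adjusted p = 0.0335).

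Markers of neighbouring cells moved with some of these groups. In bulk RNA, fewer cells of a type and less RNA per cell cannot be told apart. Of 11 pigment epithelium markers 9 were tested, and their summed intensity was 4205 to 6819 in young females, 5158 to 7234 in aged females, 4961 to 7368 in young males and 9887 to 13109 in aged males. The sums of the aged males do not overlap any other group. In aging males 8 of the 9 lay above 0 and 5 were called higher, among them Rpe65 (1.78) and Rgr (2.68). The list is not particular to this cell type, since Rlbp1 is also on the list of Muller glia markers. In aging females 8 of the 9 lay above 0 (median 0.757) and 0 were called. For the mean of both sexes 7 of the 9 lay above 0 and 6 were called higher. The 4 aged male arrays lay above all young males for Gstt3 and Gsta2. Female young 4, at 5.34 for Gsta2, had a sum of 6819, the highest of the young females. Male young 4 had a higher sum, 7368, with Gsta2 at 4.35. In aged females, with sums of 5158 to 7234, Gsta2 was 4.41 to 4.71 and Gstt3 was 7.07 to 7.29. The microglia and macrophage markers, all 10 tested, also did not overlap between male ages, with sums of 365 to 418 in young and 597 to 1088 in aged males, and 5 of the 10 were called higher in aged males and 7 for the mean of both sexes. The part of either cell type in the results for Gstt3 and Gsta2 was not tested. Male aged 1, the array of disputed age, was at 11190 in the pigment epithelium sum, the second highest. Its Gstp2 and Gss lay with the young males, and the part of this cell type in Gstp2 and Gss was not tested either. Lens markers, 10 of 11 tested, summed to 16305 to 40337 in aged females and 29922 to 45223 in aged males. Red cell markers, 4 of 9 tested, ran from 1104 to 6711 over the 16 arrays. The rod markers, 7 of 8 tested, which define the labelled tissue, summed to 61114 to 73446 on every array.

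**Figure D5:**
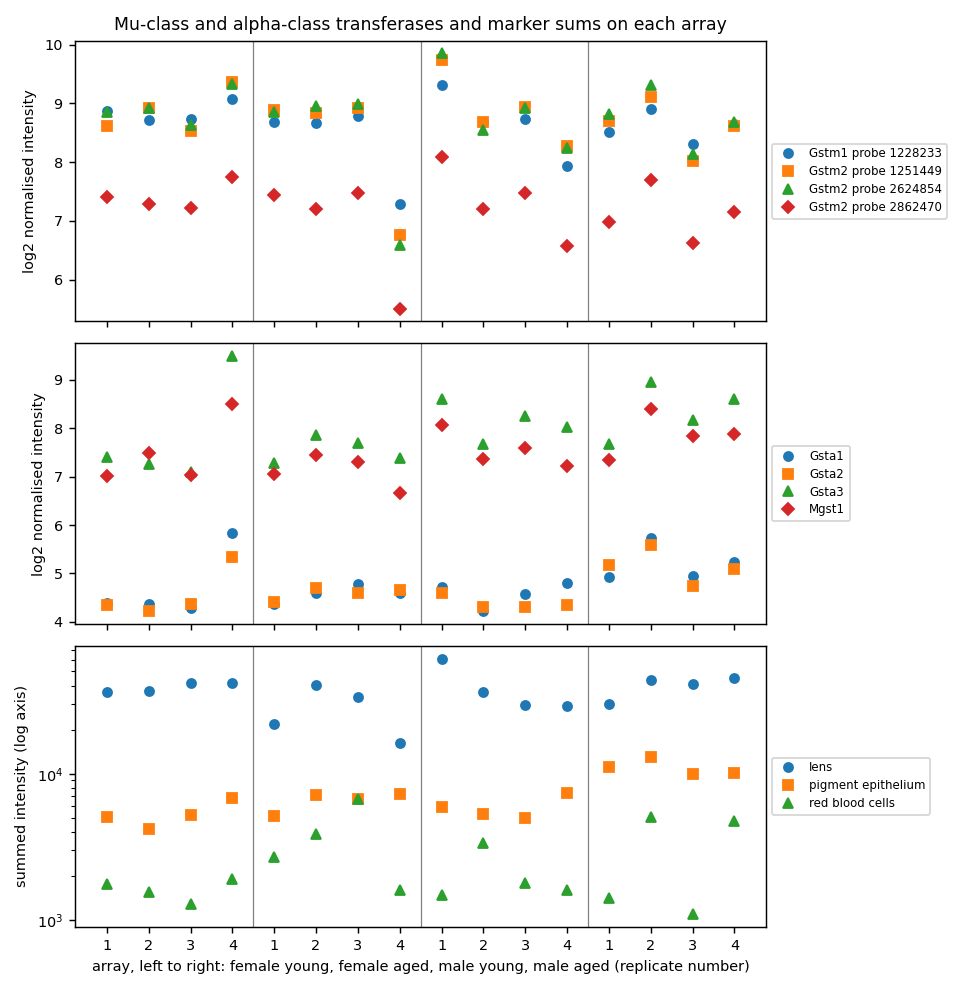
Log2 normalised intensity of Gstm1, Gstm2, Gsta1, Gsta2, Gsta3 and Mgst1 by array (upper 2 panels) and summed intensity of lens, pigment epithelium and red cell markers (lowest panel, log axis), with arrays in the order of the axis label. Each symbol is to be compared along its own row of arrays: female aged 4 is lowest for Gstm2 and for the lens sum (16305), male young 1 is highest for both, and female young 4 is highest of the young females for Gsta1, Gsta2, Gsta3 and Mgst1.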

How the data were processed

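Probe intensity values were deposited by the authors as software output, with 1 signal per probe and array and, per the file headers, a detection p-value beside each signal, whose steps correspond to 798 negative controls. A series-wide table deposited beside it holds those intensities times 1 constant per array (0.821 to 1.25), linear, not centred and with no direction to settle. Its array means all equal 197 and its medians run from 10.5 to 13.2, and it served as an alternative. Software, version and probe build are not given in the sources used. Promoters are from RefSeq (GRCm38.p6).

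Probes took their annotated symbol, updated through RefSeq (24584 of 25697 matched, and 1113 kept the file's name). Values were processed with neqc (limma 3.58.1, R 4.3.3: normexp, offset 16, quantile, log2), and statmod 1.5.0 served for slide correlations. A model of 4 group means with 12 residual degrees of freedom gave 6 two-sided comparisons, each adjusted over 15016 probes. Scripts were tested on simulated data. Arrays within a group correlated at 0.983 to 0.995.

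Members, lists and alternatives were chosen with earlier results of these data known. Genes are named where called, where among the 12 smallest unadjusted p-values for aging or the 6 smallest for sex and interaction, or where on a list of core genes, and others enter counts and ranges. Marker sums add linear normalised intensities. Probe sequences were not analysed here, so cross-binding between close copies (Gsta1 and Gsta2, Gstp1 and Gstp2, mu-class genes) was not tested. Intervals are at 95%, and the number of arrays limits their width. The alternatives covered background, scaling (with the authors' values), filter, probe choice, variance trend, weights of arrays, blocks by slide or replicate number, fits of only 2 groups and leaving out each array. A fit without female young 4, female aged 4 and male aged 1 was added after seeing the data. Same-numbered arrays did not deviate together (correlation over 0.1 in 4 of 24 pairs), so numbers were not taken as pairs.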

Additional observations from a re-analysis of the deposited data

Results flagged for a closer look

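In each group of 4 arrays the highest and the lowest value of the named genes were set against the nearest of the others by Dixon's test at 95%. Of 116 groups tested 9 had such an array, and chance alone is expected to give about 1 in 20. Female young 4 stood high for Gsta1 (5.84, nearest 4.39) and Gsta2 (5.34, nearest 4.36). Female aged 4 stood low for Gstm1 (7.30, nearest 8.67) and Gstm6 (5.47, nearest 5.93), on the array with the lowest lens marker sum (16305). Male aged 1, labelled aged in its title and 12 months in its age field, stood low for Gclm (6.89, nearest 7.25) and Gstp2 (6.35, nearest 7.27). Single values apart were Gsta2 in male young 1 (4.60, nearest 4.35), Gsto1 in male aged 2 (11.14, nearest 10.17) and Gstz1 in male young 2 (8.76, nearest 8.95).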

How the results depend on the processing

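Of 2440 values of named genes under alternatives, 2372 kept direction and side of the threshold, 20 passed the threshold anew in the same direction, 0 fell back from it, and 48, of genes not called, changed sign. Gstt3 was called in males and for the mean of both sexes under every alternative run. The count of member probes called in aging males, 1, was 2 with array weights, 2 with slide as a fixed block and 2 with only the 2 groups compared (Gsta2 and Gstt3 each time). It was 6, of Gss, Gsta1, Gsta2, Gstp2 and Gstt3, without female young 4, female aged 4 and male aged 1. For the mean of both sexes it was 2 on the authors' scaled values (Gpx7 and Gstt3), 2 with the slide block (Gsta2 and Gstt3) and 4 without those 3 arrays. Leaving out 1 array gave 0 to 1 member probes in aging females (1, Gstt3, without female young 4), 1 to 4 in aging males (2 without female young 4 and 4 without male aged 1), 1 to 3 for the mean of both sexes (3 without female young 4 and 2 without male aged 1) and 0 to 1 between aged sexes (Gss without female aged 2, Gstp2 without male aged 1). The members' median in aging males ran from 0.011 (without male aged 2) to 0.131. Calls among all probes moved more: with 1 array left out, 55 to 230 in aging males (149 with all arrays) and 26 to 281 between aged sexes (103 with all), and over other settings 79 (replicate block) to 412 (array weights) and 27 (authors' scaled values) to 233 (array weights). Over those other settings, females gave 36 to 103 (95), the mean 186 to 339 (282) and young sexes 26 to 187 (59), and the interaction gave 0 throughout. With the replicate block, member calls were 0 in females, 1 in males and 1 for the mean. Some same-numbered arrays also shared a slide. Gstt3 was at 0.70 in males under this block, and no call of a named gene changed. Sign changes among genes not called were, for aging in females, Gpx1 at 0.024 under median scaling, 0.0034 with array weights, 0.12 with the slide block and 0.16 without the 3 arrays, Gss at -0.011 with array weights, and Gpx3 at 0.058 with the slide block and 0.34 without the 3 arrays. Without the 3 arrays Sod3 was also at 0.068, Sod2 at -0.0035 and Mt2 at -0.066. In males Sod2 was at 0.029 under median scaling, Mt2 at -0.014 with the slide block and Gpx4 at 0.0028 without the 3 arrays. For the mean, Gclc was at -0.010 on the authors' scaled values, Nqo1 at 0.018 with the slide block, and Nqo1 at 0.054, Gclc at -0.035 and Sod2 at -0.0098 without the 3 arrays. With 1 array left out, the female values ran from -0.257 to 0.030 for Gclc, -0.115 to 0.173 for Gss, -0.087 to 0.070 for Mt2, -0.013 to 0.080 for Sod2, -0.046 to 0.047 for Sod1, -0.174 to 0.0051 for Sod3, -0.405 to 0.089 for Gpx3, -0.107 to 0.097 for Gpx1 and -0.043 to 0.157 for Gclm. The male values ran from -0.105 to 0.0032 for Gpx4, -0.066 to 0.069 for Sod2 and -0.024 to 0.145 for Mt2. The mean values ran from -0.026 to 0.117 for Gclc, -0.019 to 0.049 for Sod2, -0.131 to 0.0048 for Nqo1 and -0.015 to 0.079 for Mt2. The cause of these changes was not tested, beyond the fewer arrays or probes some settings use. Hmox1 and Mt2 lay at the floor in males on the authors' scaled values and gave no value there. Levels near background (Hmox1, Gsta2, Mt2) limit what a difference can show.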
